A study of Mus musculus with 12 samples.

Results

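Brown adipose tissue was profiled after CL316,243, which activates the β3-adrenergic receptor, in mice whose adipocytes lack ERRα and ERRγ. Of 12 RNA-seq libraries in the series, 6 came from these knockout mice, 3 given PBS (ERRKO_PBS) and 3 given CL316,243 (ERRKO_CL). They were chosen by genotype and treatment as the labels give them, and the 6 libraries of WT mice, 3 with PBS (WT_PBS) and 3 with CL316,243 (WT_CL), served for comparison. All mice were male C57BL/6J Bom, 12 weeks old and housed at 30 °C. They received CL316,243 at 1 mg/kg or PBS once a day for 10 days, at 4 h after lights on, and the tissue was collected 24 h after the last CL316,243 dose. In the ERRKO mice floxed alleles of both receptors were removed by a Cre transgene under the adiponectin promoter, which is active in adipocytes, so the blood vessel, nerve and immune cells of the tissue keep both genes. The WT mice carried the same floxed alleles without Cre. The labels do not state that the 3 libraries of a group are 3 animals, so the p-values reflect sample-to-sample spread, which may be technical.

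Brown adipocytes burn fatty acids in mitochondria that are uncoupled by UCP1, and release of noradrenaline onto β3-adrenergic receptors drives this through cAMP and protein kinase A. The same signal, when repeated over days, raises genes for uncoupling, fatty acid uptake, oxidation and mitochondrial enzymes. The estrogen-related receptors (ERRs) are nuclear receptors that bind near many of these oxidative genes together with PGC-1 coactivators, and ERRα and ERRγ are the main members in brown fat. Comparing ERRKO_CL with ERRKO_PBS asks which genes still respond to the agonist in adipocytes without them.

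Levels are scaled RPKM, that is reads per gene length and library total, divided by a factor per library that brings the typical gene to 1 level. Changes are log2 differences of scaled RPKM plus 0.5, given with their standard errors (SE), and are smaller than the true change for genes at low levels. A gene is called when limma, fitted to 12249 genes and all 12 libraries, gives a Benjamini-Hochberg adjusted p under 0.05. The ERRKO libraries held 12468001 to 13263567 recovered reads and the WT libraries 8478310 to 9727167. Genes of all adipocytes were present: the 15 markers had reads and summed to 16477 to 23353 scaled RPKM in ERRKO_PBS and 28831 to 30004 in ERRKO_CL. Skeletal muscle transcripts set apart ERRKO_PBS replicate 3 and ERRKO_CL replicate 3. The 23 muscle fibre genes summed to 542, 177 and 3968 scaled RPKM in ERRKO_PBS replicates 1 to 3 and to 301, 1000 and 2140 in ERRKO_CL, against 49.8 to 543 in the WT libraries. Main counts are therefore also given without both replicate 3 libraries.

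**Figure D1:**
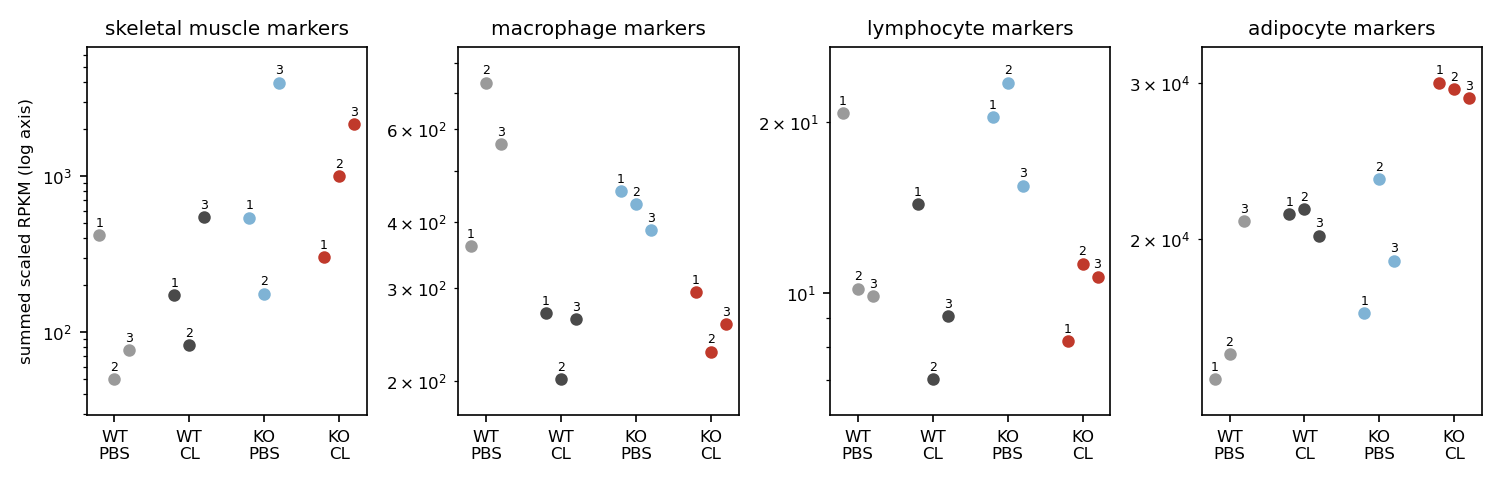
Summed scaled RPKM (log axis) of the marker genes of 4 cell types in each library, with groups on the horizontal axis (KO is ERRKO) and the replicate number above each point. Muscle markers are highest in ERRKO_PBS replicate 3 (3968) and ERRKO_CL replicate 3 (2140), macrophage and lymphocyte markers are lower in all 3 ERRKO_CL libraries than in all 3 ERRKO_PBS libraries, and adipocyte markers are higher.

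The deleted genes were read first. Esrra, which encodes ERRα, was at 8.71, 5.25 and 8.89 scaled RPKM in ERRKO_PBS and 8.37, 6.69 and 8.70 in ERRKO_CL, below all 6 WT libraries, which held 41.6 to 83.1. CL316,243 raised Esrra in WT (0.85, adjusted p = 0.0025), while the ERRKO change was 0.08 ± 0.17 (adjusted p = 0.82) and the difference between the genotypes did not pass (-0.77 ± 0.23, adjusted p = 0.092). Esrrg, which encodes ERRγ, was at 3.61, 2.29 and 4.71 in ERRKO_PBS and at 6.36, 6.59 and 8.11 in ERRKO_CL. The groups did not overlap and the gene was called higher (0.94 ± 0.25, adjusted p = 0.036), and the ERRKO_CL values lay among the WT_CL values of 5.61 to 8.12. That call was lost without ERRKO_CL replicate 1, 2 or 3 (adjusted p = 0.071, 0.084 and 0.115), without ERRKO_PBS replicate 1 or 2 (0.090 and 0.11) and on RPKM as deposited (0.070). Values cover the whole gene, and the labels do not name the deleted exons, so Esrrg does not test the genotype here and the check rests on Esrra. Esrrb, the remaining ERR gene, reached at most 0.0895 scaled RPKM in the ERRKO libraries and was not tested.

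In ERRKO tissue 818 genes were called higher with CL316,243 (6.68% of genes tested) and 443 lower (3.62%), 10.3% in all. At least 2-fold changes made up 104 of the rises and 101 of the falls, and 1252 of the 1261 called genes had no overlap between the 3 libraries of each group. Without overlap and whether called or not, 18.8% of genes tested were higher and 13.0% lower. The same fit called 2199 genes higher (18.0%) and 1538 lower (12.6%) in WT, 30.5% in all. The number of calls depended on the libraries, with 299 higher and 161 lower without both replicate 3 libraries, and 352 and 170 without ERRKO_PBS replicate 1. They were 473 and 257, 427 and 221, and 472 and 269 without ERRKO_CL replicate 1, 2 and 3, while 543 were higher without ERRKO_PBS replicate 3 and 289 lower without ERRKO_PBS replicate 2. Scaling moved the split between rises and falls: 64.9% of calls were rises as reported, 54.5% with quantile normalization and 19.1% on RPKM as deposited (396 higher and 1672 lower), where the median gene changed by -0.16 instead of 0.02. The share was also 52.8% with the 6 ERRKO libraries alone, a fit that leaves out the WT libraries, and 56.3% by edgeR on recovered reads (686 higher and 532 lower), which differs in model and input too.

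Of 25 tested genes of brown adipocytes and thermogenesis 15 were called higher in ERRKO, and 10 were not called. Ucp1, the uncoupling protein of brown fat mitochondria (chromosome 8, 83290352 to 83298452), was at 3.26, 3.95 and 6.37 scaled RPKM in ERRKO_PBS and at 27.8, 27.6 and 54.4 in ERRKO_CL. All 3 treated libraries were above all 3 controls, and the change was 2.86 ± 0.31 (adjusted p = 0.00044). The log2 rise was 2.41 in WT and the difference of the responses was 0.45 ± 0.43 (adjusted p = 0.65), although the ERRKO_CL level stayed under the WT_PBS levels of 315 to 538. Cidea, which enlarges the lipid droplets of brown adipocytes, went from 95.1, 175 and 97.3 to 425, 315 and 349 (1.61 ± 0.23, adjusted p = 0.0018). Every treated library was again higher, and in WT the change was 0.54 (adjusted p = 0.10). The difference of the Cidea responses between the genotypes was not called. Dio2, the deiodinase that makes active thyroid hormone inside the cell, was at 0.300, 0.217 and 0.220 in ERRKO_PBS and 3.28, 1.43 and 3.74 in ERRKO_CL (2.08 ± 0.36, adjusted p = 0.0050), a call that ended without both replicate 3 libraries (adjusted p = 0.052).

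In the list of brown adipocyte and thermogenic genes the 15 rises stood against 0 falls (1 without ERRKO_PBS replicate 2), with a median change of 1.03, beside 6.68% called higher and a median of 0.02 over all genes tested. WT had 12 higher and 1 lower with a median of 0.57, and 9 of the 15 ERRKO rises were also called without both replicate 3 libraries. The regulators in the list that specify brown fat gave smaller values, -0.44 for Lhx8, -0.21 for Prdm16, -0.12 for Zic1 and 0.20 for Ebf2, none of them called. Ppargc1a, which encodes the coactivator PGC-1α, was at 6.45, 3.62 and 10.8 in ERRKO_PBS and 13.4, 8.42 and 8.18 in ERRKO_CL, so the groups overlapped (0.58 ± 0.31, adjusted p = 0.27). Cox7a1, a respiratory subunit of muscle and brown fat, was at 8.79, 9.27 and 38.5 against 24.5, 20.8 and 39.3, and the library with 38.5 was ERRKO_PBS replicate 3, which held the most muscle transcripts. It was not called (0.86 ± 0.45, adjusted p = 0.27) but was called without that library (adjusted p = 0.0076). Ppargc1b, for PGC-1β, was at 9.51, 6.65 and 25.7 against 27.3, 12.1 and 20.2 and was likewise called only when that library was left out (0.65 ± 0.39, adjusted p = 0.34, and 0.023 without ERRKO_PBS replicate 3). The part of muscle transcripts in these values was not tested.

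**Figure D2:**
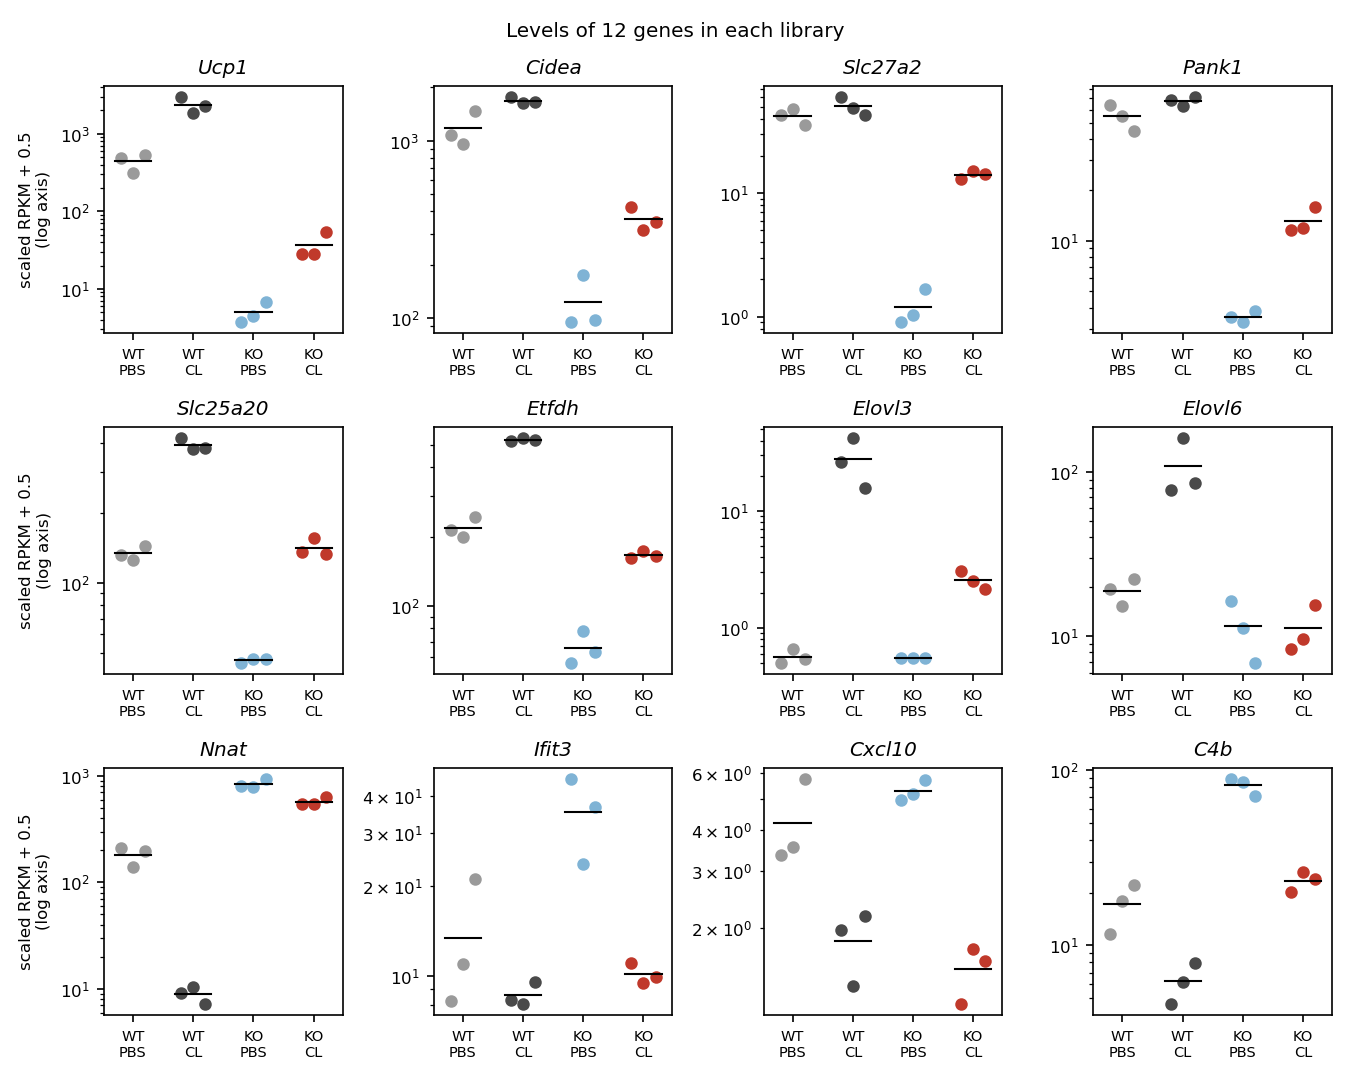
Scaled RPKM plus 0.5 (log axis) of 12 genes, with a point for each library and a bar at the mean of each group of 3 (KO is ERRKO). Ucp1, Cidea, Slc27a2, Pank1, Slc25a20, Etfdh and Elovl3 are higher in every ERRKO_CL than in every ERRKO_PBS library, Nnat, Ifit3, Cxcl10 and C4b are lower, and Elovl6 overlaps between the ERRKO groups while it is higher in every WT_CL than in every WT_PBS library.

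Slc27a2 headed the rises among called genes whose groups did not overlap and whose RPKM averaged at least 1. It encodes a very long chain acyl-CoA synthetase that takes up and activates fatty acids (chromosome 2, 126552407 to 126588243). Its levels were 0.408, 0.527 and 1.17 scaled RPKM in ERRKO_PBS and 12.5, 14.6 and 13.8 in ERRKO_CL, with no overlap (3.60 ± 0.20, adjusted p = 5.8e-06). WT libraries were at 34.9 to 48.0 with PBS and 42.6 to 59.4 with CL316,243, a change of 0.26 (adjusted p = 0.36), and the difference of the responses was 3.34 ± 0.29 (adjusted p = 0.00014). Pank1, which makes the first committed step of coenzyme A synthesis, also had a larger response than in WT. It was at 3.01, 2.79 and 3.30 in ERRKO_PBS and 11.1, 11.3 and 15.3 in ERRKO_CL (1.87 ± 0.14, adjusted p = 4.3e-05), while the WT libraries held 44.2 to 63.7 and 62.8 to 70.6 (0.32, adjusted p = 0.12, difference 1.56 ± 0.20, adjusted p = 0.0019). In both genes the treated ERRKO level remained below every WT library.

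Most genes of mitochondrial fatty acid oxidation rose, beside 6.68% of all genes tested called higher in ERRKO and 18.0% in WT. Of 26 genes 23 were called higher and 0 lower (median 0.94), compared with 19 higher and 1 lower in WT (median 0.83), and 14 were called higher without both replicate 3 libraries. The rise ran along the pathway. Acsl1, which activates fatty acids to acyl-CoA, was at 239, 196 and 257 scaled RPKM and then 551, 607 and 477 (1.24 ± 0.15, adjusted p = 0.00057). Cpt1b, which makes acylcarnitines from acyl-CoA, rose by 1.30 ± 0.14 (adjusted p = 0.00044). Slc25a20, which carries acylcarnitines across the inner membrane, rose by 1.60 ± 0.09 (adjusted p = 5.8e-06). For Slc25a20 the ERRKO_PBS libraries were at 44.7, 46.6 and 46.5 and the ERRKO_CL libraries at 135, 156 and 132, overlapping the WT_PBS range of 125 to 143, and the WT change was 1.55 (difference 0.05 ± 0.13, adjusted p = 0.90). Acadvl, the dehydrogenase for very long chains, rose by 1.26 ± 0.14 (adjusted p = 0.00044), Acad11 by 1.54 ± 0.14 (adjusted p = 0.00017) and Etfdh, which passes the electrons on to ubiquinone, by 1.35 ± 0.12 (adjusted p = 0.00015). The 3 members not called were Cpt1a (-0.31), Acad9 (0.23) and Etfb (0.45). Exons of Cpt1b and Acadvl overlap other genes over 81.4% and 42.9% of their bases, so their values are uncertain where strand was not used in counting.

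Peroxisomal genes, which shorten long fatty acids and build the organelle, had 14 of 27 called higher and 0 lower (median 0.49). WT had 18 higher, and without both replicate 3 libraries 8 of the ERRKO genes were called. Of all genes tested 6.68% were called higher in ERRKO and 18.0% in WT. Acaa1b, a peroxisomal thiolase with a close paralog, was at 11.3, 17.5 and 13.7 in ERRKO_PBS and 61.8, 70.2 and 50.8 in ERRKO_CL (2.07 ± 0.27, adjusted p = 0.00095). The treated ERRKO range overlapped the WT_CL range of 48.5 to 63.6, but WT started from 1.75 to 5.02, so its rise was larger (4.06, difference -1.99 ± 0.38, adjusted p = 0.016, and 0.068 without both replicate 3 libraries). Pex3 and Pex6, needed for peroxisome membrane and protein import, rose by 0.86 ± 0.09 (adjusted p = 0.00030) and 0.82 ± 0.09 (adjusted p = 0.00048), Abcd3, an acyl-CoA transporter, by 0.90 ± 0.11 (adjusted p = 0.00074), and Cat, catalase, by 0.78 ± 0.10 (adjusted p = 0.00095).

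**Figure D3:**
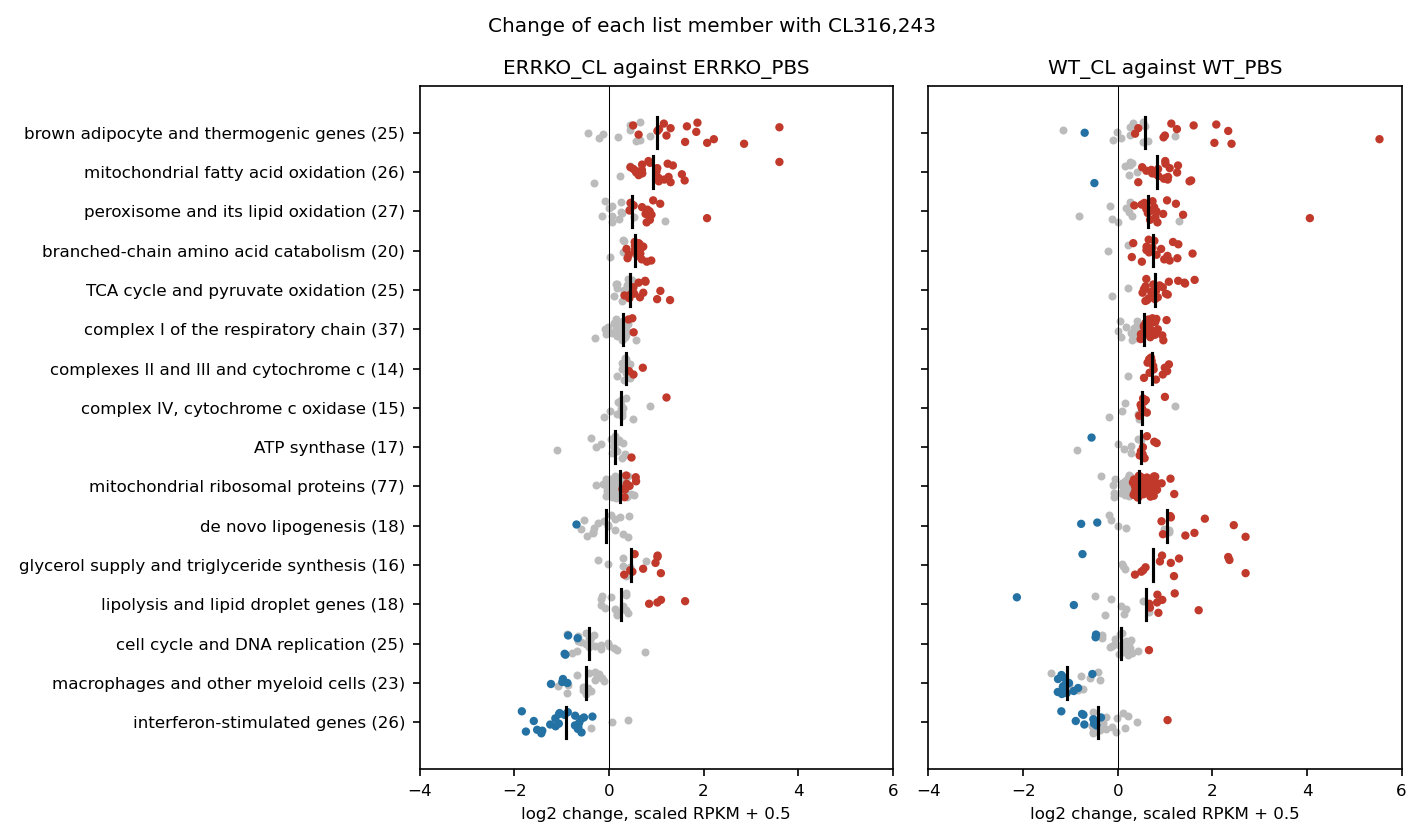
Log2 change of each tested member of 16 gene lists with CL316,243 in ERRKO (left) and WT (right), with called members in red (higher) or blue (lower), others grey, a black bar at the list's median and the number tested in brackets. In ERRKO the fatty acid oxidation list has 23 of 26 members called higher and the interferon list 23 of 26 called lower, while complex I has 3 of 37 called in ERRKO and 24 in WT.

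In the TCA cycle and pyruvate oxidation list 13 of 25 genes were called higher and 0 lower (median 0.44), compared with 23 in WT (median 0.79). Idh3a and Sucla2, subunits of isocitrate dehydrogenase and succinyl-CoA ligase, rose by 1.02 ± 0.12 (adjusted p = 0.00059) and 1.09 ± 0.15 (adjusted p = 0.0015). The count in this list hung on single libraries: it was 8 without ERRKO_CL replicate 1 or 2, 7 without ERRKO_CL replicate 3, 5 without ERRKO_PBS replicate 1, 4 without both replicate 3 libraries, 20 without WT_PBS replicate 3 and 6 on RPKM as deposited. All 25 members had a change above 0 as reported. The share called higher over all genes tested was 6.68% in ERRKO and 18.0% in WT. Of 20 genes of branched-chain amino acid catabolism 16 were called higher and 0 lower (median 0.55), with 18 in WT. Among them were Bckdha, of the branched-chain ketoacid dehydrogenase (0.90 ± 0.10, adjusted p = 0.00048, though 61.7% of its exon bases lie in other genes), and Hibadh of valine breakdown (0.73 ± 0.12, adjusted p = 0.0037). This count fell to 10 without ERRKO_CL replicate 3, 8 without ERRKO_PBS replicate 1 and 2 without both replicate 3 libraries.

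Subunits of the respiratory chain gave smaller values. Over all genes tested 6.68% were called higher in ERRKO and 18.0% in WT. The ERRKO counts of complex I, complex IV and ATP synthase below lay near that ERRKO share. ERRKO changes were above 0 for 33 of 37 complex I genes, 14 of 14 of complexes II and III and 14 of 15 of complex IV. They were above 0 for 13 of 17 ATP synthase and 68 of 77 mitochondrial ribosome genes, beside 6524 of all 12249 genes tested. Without both replicate 3 libraries 1 gene of complex I and 1 of the mitochondrial ribosome were called higher. Complex I had 3 of 37 genes called higher (Ndufab1, Ndufv3 and Ndufv1, 0.52, 0.50 and 0.41) with a median of 0.30, compared with 24 of 37 and a median of 0.56 in WT, and the count was 0 without ERRKO_CL replicate 1 or 3 or ERRKO_PBS replicate 1, 1 without ERRKO_CL replicate 2, ERRKO_PBS replicate 2 or 3 or WT_CL replicate 1 or 3, and 9 without WT_PBS replicate 3. Complexes II and III had 3 of 14 (Uqcrfs1, Sdhd and Uqcrc2) with a median of 0.36, compared with 13 of 14 in WT, and the count was 0 without ERRKO_CL replicate 1, ERRKO_PBS replicate 1 or both replicate 3 libraries, 1 without ERRKO_CL replicate 3 and 9 without WT_PBS replicate 3. In complex IV Cox8b alone of 15 was called (1.22 ± 0.27, adjusted p = 0.016), and its call was lost without ERRKO_CL replicate 1 (adjusted p = 0.062) or ERRKO_PBS replicate 1 (adjusted p = 0.068), compared with 9 of 15 in WT. Without both replicate 3 libraries Cox8b was not called (adjusted p = 0.075) and Cox7a1 was (adjusted p = 0.015). The complex IV count was 2 without ERRKO_PBS replicate 3 and 3 without WT_PBS replicate 3. ATP synthase had 1 of 17 (Atp5b, 0.48, adjusted p = 0.048, not called without any 1 of the ERRKO or WT_CL libraries or of WT_PBS replicates 1 and 2, and 2 of 17 without WT_PBS replicate 3) and 9 of 17 higher with 1 lower in WT. Of 77 mitochondrial ribosome genes 8 were called higher (median 0.22), compared with 50 in WT (median 0.44), and the count ranged down to 0 without ERRKO_CL replicate 1 or ERRKO_PBS replicate 1, with 2 to 5 without ERRKO_CL replicate 2 or 3, ERRKO_PBS replicate 3 or WT_CL replicate 3 and 19 without WT_PBS replicate 3. The interaction, which tests the difference of responses gene by gene, was called for 0 members of complex I, complexes II and III and complex IV, 1 of ATP synthase and 3 of the mitochondrial ribosome. Few of these genes thus had a called difference between the genotypes beside the gap in counts. Of 23 genes of mitochondrial DNA maintenance and biogenesis 3 were called higher, Top1mt (0.77 ± 0.12, adjusted p = 0.0032), Mterf4 (0.75 ± 0.13, adjusted p = 0.0046, with 35.2% of exon bases in other genes) and Tfb2m (0.44 ± 0.08, adjusted p = 0.0058, and 0.065 on RPKM as deposited).

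Lipid handling genes split by function, beside 6.68% of all genes tested called higher in ERRKO. Lpl, the lipase that releases fatty acids from circulating lipoproteins, was at 854, 1046 and 834 scaled RPKM in ERRKO_PBS and 1824, 1950 and 2068 in ERRKO_CL (1.10 ± 0.15, adjusted p = 0.0011). These treated levels were above the WT_CL levels of 1008 to 1099. Cidec and Plin5, which coat lipid droplets, rose by 1.03 ± 0.14 (adjusted p = 0.0011) and 0.85 ± 0.14 (adjusted p = 0.0044). With Cidea they were the 4 genes called among 18 of lipolysis and lipid droplets (median 0.25), and the lipase genes Pnpla2 and Lipe both changed by 0.18 and were not called. Triglyceride synthesis had 9 of 16 called higher (median 0.47), led in p by Dgat1, which adds the last fatty acid (53.5, 53.9 and 56.2 against 107, 105 and 114, 0.99 ± 0.14, adjusted p = 0.0013). That count was 1 without ERRKO_CL replicate 3 or without both replicate 3 libraries, 3 without ERRKO_CL replicate 2 or ERRKO_PBS replicate 3, and 5 without any other ERRKO or WT_CL library. Among 15 genes of all adipocytes 3 were called higher (Acsl1, Lpl and Cidec, median 0.33). Adipoq, Fabp4 and Pparg had changes of 0.33, 0.60 and -0.12 and were not called.

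Genes for the synthesis of new fatty acids had no called rise. Of 18 lipogenesis genes 0 were called higher and 1 lower (Fads1, a desaturase, -0.70 ± 0.16, adjusted p = 0.020, and 0.081, 0.065 and 0.068 without ERRKO_CL replicate 2, ERRKO_CL replicate 3 or ERRKO_PBS replicate 1), with a median of -0.06, compared with 9 higher and 2 lower in WT and a median of 1.03. Fasn, fatty acid synthase, was at 363, 239 and 135 scaled RPKM in ERRKO_PBS and at 239, 257 and 443 in ERRKO_CL, overlapping groups with a change of 0.40 ± 0.50 (adjusted p = 0.68). WT rose by 2.70 (adjusted p = 0.0019), but the difference of -2.30 ± 0.70 did not pass (adjusted p = 0.096). Elovl6, which extends palmitate, and Acly, which supplies cytosolic acetyl-CoA, were chosen after their values were seen. Elovl6 was at 16.0, 10.7 and 6.39 against 7.85, 9.15 and 14.9 (-0.01 ± 0.34, adjusted p = 0.99) while WT rose by 2.45, and here the difference was called (-2.46 ± 0.48, adjusted p = 0.018, and 0.051 without WT_PBS replicate 2). Acly changed by -0.33 ± 0.46 in ERRKO and by 1.62 in WT (difference -1.95 ± 0.65, adjusted p = 0.13). The interaction was called for 1 of the 18 lipogenesis genes, Elovl6. Cholesterol synthesis had 1 called gene of 21, Hmgcs1, the cytosolic HMG-CoA synthase, at 21.7, 15.6 and 21.4 against 62.1, 52.5 and 42.1 (1.39 ± 0.17, adjusted p = 0.00059). Its WT change was 1.51. Over all genes tested 6.68% were called higher and 3.62% lower in ERRKO, near the cholesterol synthesis count and the lower count of lipogenesis.

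In adrenergic and cAMP signalling 4 of 34 genes were called higher and 1 lower, with a median of 0.05. Over all genes tested these shares were 6.68% and 3.62%. Prkar2b, the main regulatory subunit of protein kinase A in fat, was at 210, 215 and 237 scaled RPKM in ERRKO_PBS and 467, 439 and 444 in ERRKO_CL (1.03 ± 0.11, adjusted p = 0.00044, WT 1.02). Pde4d, which degrades cAMP, rose by 0.95 ± 0.17 (adjusted p = 0.0062), and the remaining rises were Pde4a (0.81, adjusted p = 0.023) and Pde3b (0.45, adjusted p = 0.0085). Pde4a lost its call without ERRKO_CL replicate 1 or 2 or ERRKO_PBS replicate 1 or 2 (adjusted p = 0.056, 0.091, 0.079 and 0.071), and Pde3b on RPKM as deposited (0.052), by quantile normalization (0.083) and without both replicate 3 libraries (0.095). Adrb1, the β1 receptor, was called lower (-0.63 ± 0.14, adjusted p = 0.017), a call lost without ERRKO_CL replicate 1 or ERRKO_PBS replicate 1 or 2 (0.065, 0.077 and 0.053). Adrb3, the receptor that CL316,243 binds, was at 238, 237 and 177 in ERRKO_PBS and 144, 237 and 144 in ERRKO_CL (-0.34 ± 0.26, adjusted p = 0.47). Every ERRKO library was thus above the WT range of 18.7 to 54.7, with 24.9% of the gene's exon bases lying in other genes. Of 18 immediate early genes 0 were called higher and 1 lower (Fosl2, -0.61, adjusted p = 0.028), in tissue taken 24 h after the last dose. The Fosl2 call ended without ERRKO_CL replicate 2 or 3 or ERRKO_PBS replicate 1 or 2 (0.098, 0.096, 0.105 and 0.083).

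The remaining large rises were spread over other functions. Slc25a34, a mitochondrial carrier, went from 0.0833, 0.958 and 1.15 scaled RPKM to 15.6, 13.9 and 4.90 (3.26 ± 0.56, adjusted p = 0.0046), with a WT change of 3.25. Adtrp, a hydrolase of fatty acid esters of hydroxy fatty acids, went from 5.40, 9.69 and 9.67 to 58.1, 37.2 and 36.0 (2.35 ± 0.30, adjusted p = 0.00083). Apoc1, an apolipoprotein, rose by 1.94 ± 0.28 (adjusted p = 0.0017), and Ociad2 by 1.87 ± 0.22 (adjusted p = 0.00057). Hist1h4h, one of many near-identical histone genes, rose by 1.94 ± 0.31 (adjusted p = 0.0031) and Gm20594 by 1.82 ± 0.19 (adjusted p = 0.00041). Cyp2e1, a cytochrome P450, and Pdk4, a kinase that inhibits pyruvate dehydrogenase, were called with larger spreads (2.44 ± 0.62, adjusted p = 0.028, and 1.85 ± 0.43, adjusted p = 0.021). Cyp2e1 was not called without ERRKO_CL replicate 1 or 3 or ERRKO_PBS replicate 1 or 3 (0.093, 0.096, 0.111 and 0.088), nor Pdk4 without ERRKO_CL replicate 2 or ERRKO_PBS replicate 1 (0.060 and 0.087).

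The responses of the 2 genotypes share no library. Of the 818 genes called higher in ERRKO, 572 were also called higher in WT, which is 69.9% of the ERRKO list and 26.0% of the WT list. Of the 443 called lower, 246 were also lower in WT, 55.5% and 16.0%. Over all genes tested 18.0% were called higher and 12.6% lower in WT, and 6.68% and 3.62% in ERRKO. Across the 12249 genes, which are not independent replicates, the log2 responses correlated at r = 0.562 and rho = 0.558. The interaction was called for 478 genes (3.90%), with a response more positive in ERRKO for 231 (1.89%) and more negative for 247 (2.02%), of which 116 were also called in ERRKO. Among those 116 the rise was larger in ERRKO than in WT for 42 and smaller for 37, and the fall was larger for 21 and smaller for 16. Calls of opposite direction in the genotypes were found for 18 genes, 12 of them higher in ERRKO, and all 18 were called in the interaction.

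**Figure D4:**
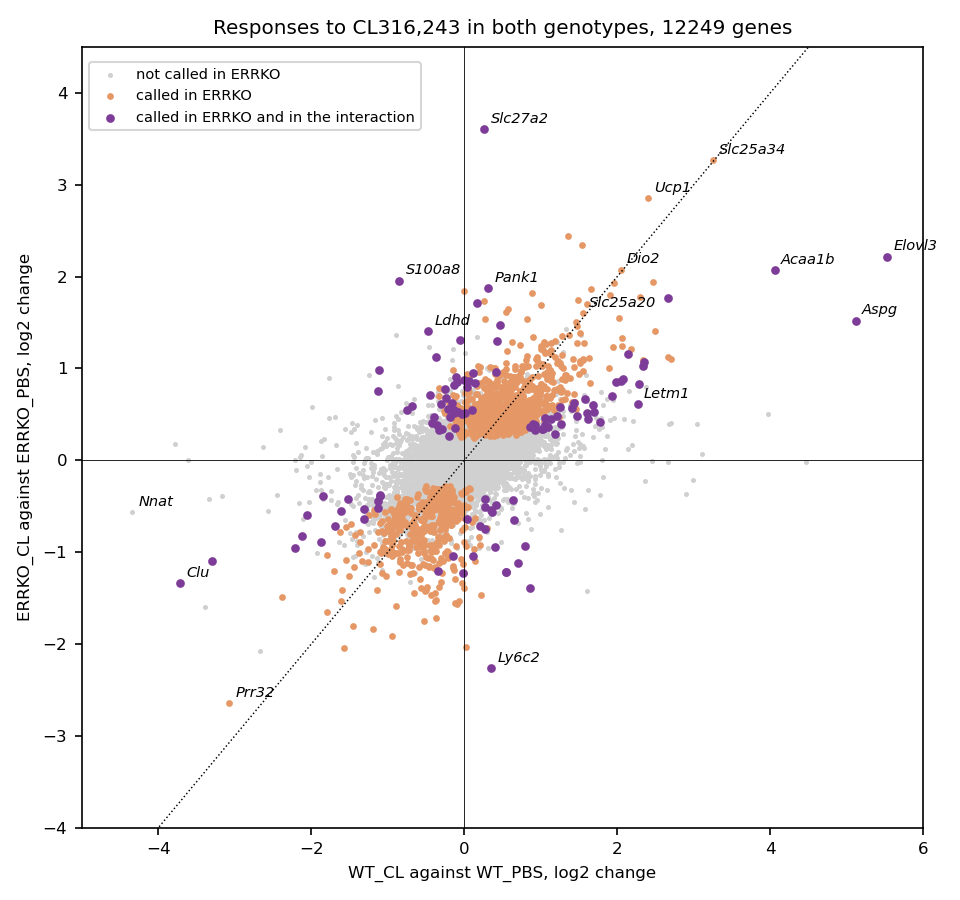
Log2 change with CL316,243 in WT (horizontal) and in ERRKO (vertical) for 12249 genes, with genes called in ERRKO in orange, those also called in the interaction in purple and the dotted line at equal responses. Slc27a2 (3.60 in ERRKO, 0.26 in WT) lies far above the line, Elovl3 (2.22 and 5.53) and Aspg (1.52 and 5.12) far below it, and Ucp1 (2.86 and 2.41) close to it.

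Elovl3, an elongase of very long chain fatty acids that cold induces in brown fat, rose less than in WT by limma. It had 6 recovered reads over the 3 ERRKO_PBS libraries and 231 over the 3 ERRKO_CL libraries, a ratio per read total of 39.5 with a 95% counting interval of 17.9 to 109. Levels were at most 0.0516 scaled RPKM with PBS and 2.57, 2.02 and 1.65 with CL316,243 (2.22 ± 0.27, adjusted p = 0.00074), and WT_CL libraries reached 15.4 to 41.5. The difference of the responses was -3.31 ± 0.39 (adjusted p = 0.00090) by limma, but edgeR on recovered reads, which does not add 0.5 to the level, did not call it (adjusted p = 0.23). Aspg, an asparaginase, went from 0.311, 0.248 and 0.307 to 1.26, 2.90 and 1.44 (1.52 ± 0.26, adjusted p = 0.0046) and in WT from at most 0.835 to between 31.3 and 59.5 (difference -3.59 ± 0.37, adjusted p = 0.00050). Smaller rises than in WT were also called for Letmd1, an inner mitochondrial membrane protein of brown fat (0.51 ± 0.08 against 1.60, difference -1.09, adjusted p = 0.00049), and Pde7b, a cAMP phosphodiesterase (0.83 ± 0.11 against 2.29, difference -1.46, adjusted p = 0.00068). Letm1, a mitochondrial ion exchanger, had 0.61 against 2.27 (difference -1.65, adjusted p = 0.00071), with its own ERRKO call (adjusted p = 0.014) lost without ERRKO_CL replicate 3 or ERRKO_PBS replicate 1 (0.054 and 0.057).

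Ldhd, the mitochondrial D-lactate dehydrogenase, was called in opposite directions. It rose in ERRKO from 15.5, 23.8 and 18.0 to 52.0, 52.2 and 47.7 scaled RPKM (1.40 ± 0.15, adjusted p = 0.00045) and fell by 0.47 in WT (adjusted p = 0.037), a difference of 1.87 ± 0.22 (adjusted p = 0.00090). The treated ERRKO level was within the range of the WT libraries, 37.5 to 62.4, and 42.2% of the gene's exon bases lie in other genes. S100a8, a calcium-binding protein abundant in neutrophils, rose in ERRKO from 3.53, 6.80 and 3.61 to 19.7, 17.8 and 18.6 (1.96 ± 0.33, adjusted p = 0.0040), with -0.85 in WT (difference 2.80 ± 0.46, adjusted p = 0.0071). Its partner S100a9 was not called (0.36), and S100a8 was the 1 gene called of 8 tested neutrophil, eosinophil and mast cell markers. The 13 listed markers of these cells, S100a8 included, summed to 15.5 to 24.8 scaled RPKM in ERRKO_PBS and 33.7 to 47.4 in ERRKO_CL, with the eosinophil gene Epx at 0 in all libraries. Without S100a8 the sums were 12.0, 18.0 and 19.5 against 27.7, 15.9 and 17.4 and overlapped, so the separation of the ranges came from S100a8. Glycolysis had 2 genes called lower of 21 and 1 higher (Pgam1, 0.40, adjusted p = 0.038), compared with 9 higher in WT. Of all genes tested 3.62% were called lower and 6.68% higher in ERRKO. Eno1 (47.0, 38.4 and 33.6 against 19.4, 18.7 and 23.3, -0.93 ± 0.22, adjusted p = 0.021) and Pfkp (-0.43 ± 0.11, adjusted p = 0.034) were the 2 lower and were higher in WT (0.80 and 0.64), with differences of -1.73 (adjusted p = 0.011) and -1.07 (adjusted p = 0.0045). The ERRKO falls were not called without ERRKO_CL replicate 1 or 2 or ERRKO_PBS replicate 1 for Eno1 (0.066, 0.075 and 0.088) and without ERRKO_CL replicate 1, 2 or 3 or ERRKO_PBS replicate 1 or 2 for Pfkp (0.092, 0.096, 0.075, 0.102 and 0.105). Pgam1 lost its call without any ERRKO library other than ERRKO_PBS replicate 2 (0.073 to 0.142) and without WT_CL replicate 1 or 3 (0.053 and 0.057).

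A pair of genes that CL316,243 lowered in WT had a smaller response in ERRKO. Nnat, a small membrane protein (chromosome 2, 157560078 to 157562522), was at 809, 794 and 931 scaled RPKM in ERRKO_PBS and 546, 539 and 631 in ERRKO_CL. These groups did not overlap, but the change of -0.56 ± 0.17 missed the threshold (adjusted p = 0.053), and it passed on RPKM as deposited (0.011) and by edgeR (0.041). WT_PBS libraries held 139 to 209 and WT_CL libraries 6.75 to 9.83 (-4.34), so the difference was 3.78 ± 0.23 (adjusted p = 8.2e-06). Clu, the secreted chaperone clusterin, fell in ERRKO from 13.7, 14.4 and 16.5 to 5.41, 5.58 and 5.68 (-1.34 ± 0.10, adjusted p = 4.3e-05). In WT it fell by 3.72, from 58.4 to 74.6 with PBS to 4.31 to 4.87, and the difference was 2.38 ± 0.14 (adjusted p = 8.2e-06).

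Interferon-stimulated genes, which cells switch on when type I interferon activates a factor that contains STAT2 and IRF9, stood among the falls. In ERRKO 23 of 26 were called lower and 0 higher (median -0.90), beside 3.62% of all genes tested, compared with 9 lower and 1 higher in WT (median -0.41), and the interaction was called for 2. Ifit3, an antiviral effector with close paralogs (chromosome 19, 34583531 to 34588731), was at 45.1, 23.1 and 36.4 scaled RPKM in ERRKO_PBS and 10.6, 8.93 and 9.44 in ERRKO_CL (-1.75 ± 0.30, adjusted p = 0.0044). Cxcl10, a chemokine that draws T cells, went from 4.47, 4.67 and 5.22 to 0.672, 1.23 and 1.08 (-1.84 ± 0.23, adjusted p = 0.00083). Treated libraries were lower throughout for both, and the ERRKO_PBS levels of Ifit3 lay above all WT_PBS libraries, at 7.74 to 20.5.

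The other arms of the interferon list moved the same way. Usp18, which restrains interferon signalling, fell by 1.59 ± 0.25 (adjusted p = 0.0031), Irf7, which amplifies it, by 1.52 ± 0.25 (adjusted p = 0.0041) and the antiviral genes Oasl2 and Mx1 by 1.24 ± 0.17 (adjusted p = 0.0013) and 1.06 ± 0.16 (adjusted p = 0.0021). Stat2 was at 8.92, 7.53 and 8.84 against 5.37, 5.41 and 4.84 (-0.64 ± 0.10, adjusted p = 0.0034). Irf7, like Isg15, Rsad2 and Ifi27, lies outside the naming rule and was chosen after values were seen. Among the members not called were Rsad2 (0.06, and -0.12 on RPKM as deposited) and Ifi27 (0.40). The count was 15 without ERRKO_PBS replicate 1 and 10 without both replicate 3 libraries, and 24 on RPKM as deposited. Of 37 proteasome subunits the 3 called lower were Psmb8 (-0.98 ± 0.16, adjusted p = 0.0031), Psmb9 (-1.04 ± 0.19, adjusted p = 0.0072) and Psmb10 (-0.67 ± 0.13, adjusted p = 0.0080), the inducible subunits of the immunoproteasome, which interferon raises. Psmb10 lost its call without both replicate 3 libraries (adjusted p = 0.053). The 2 called higher were Psmd4 of the regulatory particle and Psmb5, a constitutive catalytic subunit (0.42 and 0.48). Of all genes tested 3.62% were called lower and 6.68% higher in ERRKO. The higher count was 0 without ERRKO_CL replicate 1 or 2 or ERRKO_PBS replicate 1, 1 without ERRKO_CL replicate 3 or ERRKO_PBS replicate 3 and 4 without WT_PBS replicate 3.

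**Figure D5:**
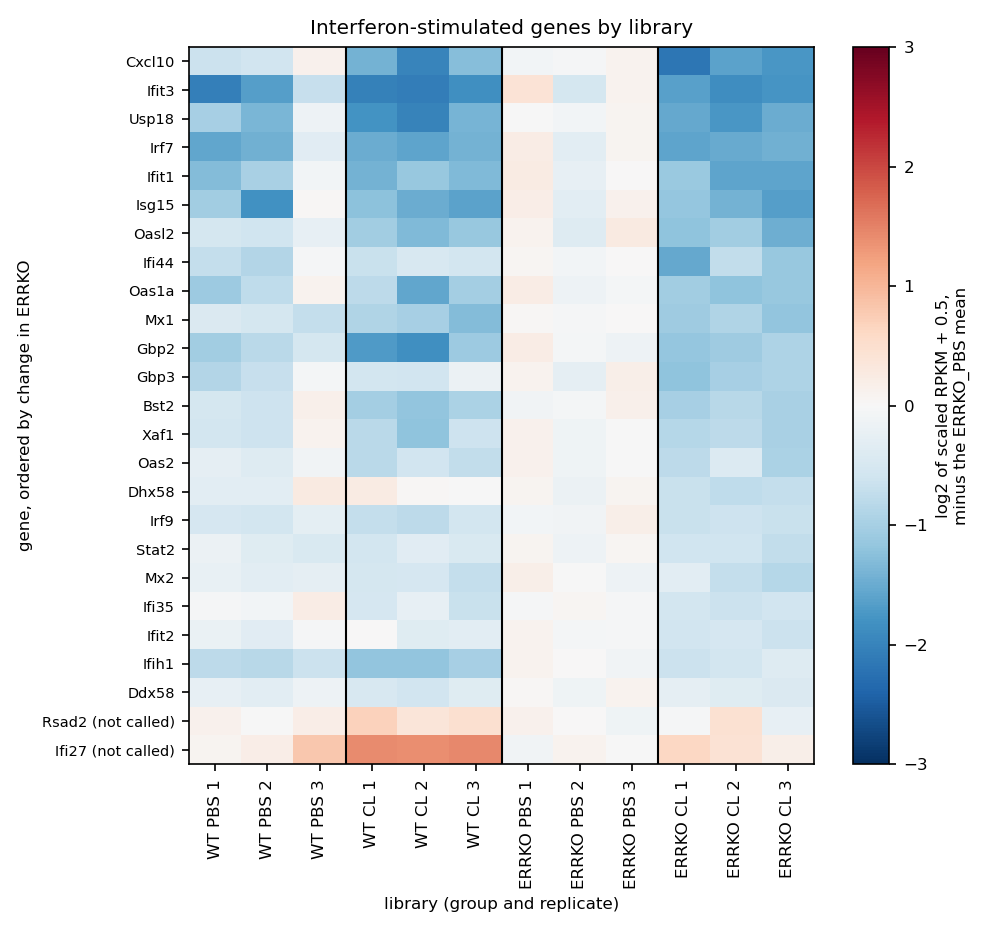
Log2 of scaled RPKM plus 0.5 minus the ERRKO_PBS mean for the 23 interferon-stimulated genes called lower in ERRKO and for Rsad2 and Ifi27 (rows, ordered by change in ERRKO) in the 12 libraries (columns), with blue for lower and red for higher. The ERRKO_CL columns are blue for the 23 called genes, and Rsad2 and Ifi27 are marked as not called.

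The promoters of 3 called interferon genes are shown because they hold the letters of the interferon-stimulated response element and the genes fell together. RefSeq (GRCm38.p6) sequences of the 250 bases before the start were used, searched on both strands for GAAA, any 2 bases and GAAA, with each match in capitals as it reads along the gene's strand.
Ifit3 (chr19:34583279-34583528, plus strand): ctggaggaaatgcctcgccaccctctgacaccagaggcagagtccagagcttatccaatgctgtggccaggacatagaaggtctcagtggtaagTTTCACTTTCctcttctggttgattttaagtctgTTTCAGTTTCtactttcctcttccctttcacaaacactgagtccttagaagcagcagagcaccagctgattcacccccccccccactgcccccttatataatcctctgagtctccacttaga
Cxcl10 (chr5:92348890-92349139, minus strand): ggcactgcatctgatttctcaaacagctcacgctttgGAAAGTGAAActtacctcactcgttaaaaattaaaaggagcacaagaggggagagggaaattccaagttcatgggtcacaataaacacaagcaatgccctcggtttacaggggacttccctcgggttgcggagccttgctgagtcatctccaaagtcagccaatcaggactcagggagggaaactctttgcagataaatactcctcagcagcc
Stat2 (chr10:128270248-128270497, plus strand): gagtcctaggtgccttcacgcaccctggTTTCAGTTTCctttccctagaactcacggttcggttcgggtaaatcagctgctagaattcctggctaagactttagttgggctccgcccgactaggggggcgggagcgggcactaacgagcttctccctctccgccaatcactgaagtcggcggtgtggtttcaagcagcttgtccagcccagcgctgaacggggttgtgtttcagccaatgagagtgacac
Ifit3 held 2 matches, at -156 and -122 from the start, and Cxcl10 and Stat2 held 1 each, at -213 and -222. Windows of this kind matched in RefSeq for 19 of the list's genes, and 10 of their 22 windows (45.5%) held the element, those of Bst2, Cxcl10, Gbp2, Gbp3, Ifit1, Ifit3, Isg15, Oas1a, Rsad2 and Stat2. The list was made of genes known to respond to interferon, so its 45.5% does not test these data. The share was 9.45% of 434 windows of all genes called lower and 2.41% of windows of genes called higher. It was 2.61% of windows of genes tested and 2.98% of all 32851 windows. The windows of genes called lower include those of the interferon genes called lower, so the 9.45% is not a separate comparison. The ERR element TNAAGGTCA was in 0.888% of windows of genes called higher, 0.679% of those of genes tested and 1.14% of all windows. The cAMP element TGACGTCA was in 2.54%, 2.52% and 1.55% of the same sets. Rsad2 held the interferon element and was not called, and a match describes letters in this window only.

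Summed macrophage and lymphocyte markers were lower in the same libraries, with few markers called, while those of neutrophils, eosinophils and mast cells were not lower. In whole tissue fewer cells of a type and less RNA per cell cannot be told apart. Macrophage markers summed to 386 to 457 scaled RPKM in ERRKO_PBS and 227 to 294 in ERRKO_CL, with all 23 in the list detected, and all 23 had a change under 0 (median -0.49). Of them 4 were called lower, C1qa, C1qb, C1qc (complement C1q, -1.22, -0.88 and -0.98) and Fcgr1, an Fc receptor (-0.97). WT had 14 lower with a median of -1.07. Of all genes tested 3.62% were called lower in ERRKO and 12.6% in WT. With the 6 ERRKO libraries alone, and also on RPKM as deposited, 9 macrophage markers were called lower. The ERRKO count was 0 without both replicate 3 libraries, with adjusted p of 0.069, 0.057 and 0.080 for the C1q genes, and Fcgr1 was not called without ERRKO_CL replicate 2 or 3 or ERRKO_PBS replicate 1 (0.060, 0.061 and 0.064). Lymphocyte markers summed to 15.4 to 23.5 against 8.21 to 11.3, with 2 of 11 tested called lower (Cd3g and Lck, adjusted p = 0.029 and 0.015). That count was 0 without ERRKO_CL replicate 1, ERRKO_PBS replicate 2 or both replicate 3 libraries, and 1 without ERRKO_CL replicate 3 or ERRKO_PBS replicate 1, but 4 with the 6 ERRKO libraries alone and 6 on RPKM as deposited. Red blood cell genes summed to 711 to 982 against 470 to 631, with 0 of 7 tested called. The part of these cells in the interferon result was not tested.

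Single genes of immune and inflammatory function were among the largest falls. Ly6c2, a surface protein of monocytes and T cells with close paralogs, went from 6.53, 7.08 and 4.25 scaled RPKM to 0.916, 0.691 and 0.860 (-2.26 ± 0.30, adjusted p = 0.0010). Its WT change was 0.35 (adjusted p = 0.41), and the difference was called (-2.61 ± 0.42, adjusted p = 0.0067). C4b, complement C4, went from 88.0, 84.9 and 70.9 to 19.7, 25.7 and 23.3 (-1.80 ± 0.23, adjusted p = 0.00083). WT_PBS libraries held 11.2 to 21.7 of C4b, near the treated ERRKO level. Ccl7, a monocyte chemokine, fell by 2.04 ± 0.37 (adjusted p = 0.0065, and 0.057 without both replicate 3 libraries) and Zbp1, a nucleic acid sensor, by 1.72 ± 0.35 (adjusted p = 0.011, and 0.078 without them). Casp12, a caspase of the endoplasmic reticulum, fell by 1.65 ± 0.27 (adjusted p = 0.0038). Cxcl14, a chemokine secreted by brown fat, went from 19.2, 24.0 and 12.7 to 6.93, 4.33 and 8.92 (-1.41 ± 0.26, adjusted p = 0.0070).

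Other falls included Prr32, which had 303 reads over the ERRKO_PBS libraries and 16 over the ERRKO_CL libraries, a ratio of 0.0542 with a 95% counting interval of 0.0306 to 0.0895. Its log2 change was -2.65 ± 0.34 (adjusted p = 0.00098) and its WT change -3.07. Emp1, a membrane protein, went from 99.8, 47.7 and 47.8 scaled RPKM to 18.3, 18.3 and 12.0 (-1.91 ± 0.28, adjusted p = 0.0018). Ppp1r1b, an inhibitor of protein phosphatase 1 controlled by protein kinase A, went from 2.83, 5.39 and 8.90 to 1.51, 0.222 and 1.35 (-2.03 ± 0.40, adjusted p = 0.0093). Grb14, an adapter that inhibits the insulin receptor, went from 55.4, 43.3 and 43.7 to 29.8, 18.2 and 23.9 (-0.99 ± 0.18, adjusted p = 0.0065), and it was the 1 gene called lower of 20 in insulin signalling. Ly6a, a progenitor marker also known as Sca-1 and raised by interferon, fell by 1.06 ± 0.17 (adjusted p = 0.0030), and was 1 of 2 genes called lower of 13 tested progenitor and fibroblast markers. The other was Thy1 (-0.52, adjusted p = 0.040), and 1 of the 2 calls was lost without any 1 of the ERRKO or WT_CL libraries or without both replicate 3 libraries. Pdgfra and Cd34 of the same list changed by -0.03 and -0.17 and were not called. Of all genes tested 3.62% were called lower in ERRKO.

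The list of genes typical of white fat gave 4 lower and 1 higher of 12 tested, with a median of 0.14. The 12 and the median include Trip4 (0.18, not called). It was matched to the listed name Asc1 as a synonym and is not a white fat marker. Over all genes tested 3.62% were called lower and 6.68% higher. Those lower were Ccdc80 (-1.41), Npr3 (-1.20), Dpt (-0.87) and Lep, leptin (-0.73), and Slc7a10 was higher (1.18). The lower count was 1 without ERRKO_CL replicate 1 or 2, ERRKO_PBS replicate 1 or 2 or both replicate 3 libraries, and the Slc7a10 call ended without any ERRKO library other than ERRKO_PBS replicate 2 (adjusted p = 0.081 to 0.127), without WT_CL replicate 1 or 3 (0.055 and 0.056) and without WT_PBS replicate 2 (0.052). Cell cycle genes had 0 of 25 called higher and 4 lower, Top2a, Mki67, Mcm6 and Mcm3 (-0.94, -0.92, -0.86 and -0.66), with a median of -0.43 compared with 0.06 in WT. The interaction was called for 0 of these 25 genes. The lower count was 1 without ERRKO_CL replicate 1 or 2 and 0 without ERRKO_PBS replicate 1, but 8 by edgeR and 15 on RPKM as deposited. Skeletal muscle had 0 of 23 genes called in either direction (median 0.26), with Ckm, muscle creatine kinase, at 47.0, 11.1 and 389 in ERRKO_PBS and 23.3, 87.1 and 212 in ERRKO_CL.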

How the data were processed

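The authors deposited RPKM for 24452 genes. Their second deposited table, of 12380 genes, holds a linear signal made of whole steps per library (100% within 0.01), and reads were recovered from it. The submitters' processing notes name bcl2fastq 2.16.0.10, cutadapt, STAR 2.3.0, edgeR and the builds mm9 and mm10. Which build applied, how reads were counted and whether strand mattered is not given in the sources used here. RPKM was divided by median-of-ratios factors. Genes averaging 0.5 RPKM or more were tested with limma 3.58.1 (R 4.3.3, trend) on log2(value + 0.5), with 4 group means and 8 residual degrees of freedom. Alternatives were edgeR 4.0.16 on recovered reads, other pseudocounts, filters and scalings, and fewer libraries. The test was tried on simulated data.

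Members, the 41 gene lists and the tests were chosen with earlier results of these data known. Named genes were the 15 largest rises and the 15 largest falls of called genes whose groups did not overlap and whose RPKM averaged at least 1, up to 5 members of each list by p, the 10 smallest interaction p-values and 14 fixed genes. Not every gene so named is described, and some are not reported here. Members named as uncalled or as the called members of a list, and others where stated, were chosen after their values were seen. Coordinates are from GENCODE M21 (GRCm38). Among the deposited data 9 stray cells were not used. Counting intervals cover counting error only.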

Additional observations from a re-analysis of the deposited data

Results flagged for a closer look

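For 23 named genes the response to CL316,243 differed between the genotypes by the interaction test (limma adjusted p under 0.05). The values are the ERRKO response minus the WT response in log2, and 3.90% of all genes tested were called. The response was more positive in ERRKO for Nnat (3.78), Slc27a2 (3.34), S100a8 (2.80), Clu (2.38), Ldhd (1.87), Pank1 (1.56), Il17re (1.47), Cpt1b (0.87), Hyou1 (0.83) and Auh (0.77). It was more negative in ERRKO for Aspg (-3.59), Elovl3 (-3.31), Ly6c2 (-2.61), Elovl6 (-2.46), Acaa1b (-1.99), Eno1 (-1.73), Letm1 (-1.65), Pde7b (-1.46), Pafah2 (-1.36), Gk (-1.31), Letmd1 (-1.09), Pfkp (-1.07) and Tfb2m (-0.69). The more negative responses include smaller rises than in WT, and falls in ERRKO for Ly6c2, Eno1 and Pfkp. The Cpt1b value rests on a gene with 81.4% of its exon bases in other genes, and its call ended without any 1 library other than ERRKO_CL replicate 1, ERRKO_PBS replicate 3 and WT_PBS replicate 3 (adjusted p = 0.058 to 0.088). That of Gk ended without any 1 library other than WT_CL replicate 2 and WT_PBS replicate 3 (0.054 to 0.108). That of Elovl6 ended without WT_PBS replicate 2 (0.051), and those of Acaa1b and Auh without both replicate 3 libraries (0.068 and 0.059). By edgeR on recovered reads Elovl3 had an adjusted p of 0.23 and Gk 0.062.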

How the results depend on the processing

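Genes called higher in ERRKO numbered 818, with 396 on RPKM as deposited, 299 without both replicate 3 libraries and 352 to 1098 with 1 library left out. Genes called lower numbered 443, with 1672, 161 and 170 to 566 under the same settings. The interaction was called for 478 genes, for 217 without both replicate 3 libraries, 1153 with library weights and 224 (without WT_CL replicate 3) to 826 (without WT_PBS replicate 3) with 1 library left out. Some small changes turned sign. Esrra gave -0.11 on RPKM as deposited and -0.15 to 0.20 with 1 library left out, and Fasn -0.25 without both replicate 3 libraries. Elovl6 gave 0.11 with library weights, 0.019 with muscle transcripts as a covariate and -0.34 to 0.29 with 1 library left out. Ckm gave -0.50 by edgeR, -0.22 with the muscle covariate and -0.83 to 1.70 with 1 library left out. Rsad2 gave -0.12 on RPKM as deposited and -0.13 to 0.22 with 1 library left out. The cause was not tested. Of 117 called results for named genes 69 kept their call without both replicate 3 libraries and 76 without ERRKO_PBS replicate 1, and 0 turned sign in any setting run.

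With the replicate number as a block 683 genes were called higher and 396 lower in ERRKO, 3522 were called in WT and 371 in the interaction, and 8 of the 117 results lost their call. Same-numbered ERRKO libraries deviated from their group means with correlations of 0.12, 0.02 and 0.37, and ERRKO_PBS replicate 2 correlated best with ERRKO_CL replicate 1 (0.29), so the numbers were not taken to pair the samples. Genes averaging under 0.5 RPKM, among them Esrrb and Fgf21, were not tested.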
